A study of Mus musculus with 11 samples.

Results

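RNA from dissected lateral habenula of the mouse was examined for 9 genes that mark neurons of the hippocampus and cerebral cortex. The genes were chosen by name, with earlier results of these data known. Prox1, C1ql2 and Dsp mark granule cells of the dentate gyrus, and Neurod6, Tbr1, Wfs1, Spink8, Mpped1 and Emx1 mark pyramidal or cortical neurons. Each name matched 1 of the 54532 rows of the count table, and all 9 were among the 19619 genes that had enough reads to be tested. The series looks for molecular links between rheumatoid arthritis and depression in mice. Its 11 libraries came from BALB/c mice of 3 months: 3 CAIA and 3 control libraries in females, and 3 CAIA and 2 control libraries in males. CAIA mice received an intraperitoneal cocktail of 5 monoclonal antibody clones against collagen II at 50 mg/kg and, 3 days later, lipopolysaccharide (LPS) at 1 mg/kg. Controls of both sexes received vehicle for both injections, so antibody and LPS cannot be told apart. The labels do not say that each library is a separate animal, so the p-values measure the spread between libraries, which may in part be technical. The male controls carry the numbers 1 and 3.

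The lateral habenula is a small nucleus of the epithalamus that sits beside the third ventricle, under the hippocampus and near the choroid plexus, the medial habenula and the thalamus. Granule cells and pyramidal cells are the principal excitatory neurons of the hippocampus. Granule cells send mossy fibres to the pyramidal cells of CA3, and glutamatergic neurons of the hippocampus and cortex arise from the dorsal telencephalon, where Emx1, Neurod6 and Tbr1 act as developmental regulators. Habenular neurons come from the diencephalon. Several of the 9 genes are also known outside the hippocampus: Prox1 in lymphatic endothelium, oligodendrocyte precursors and parts of the thalamus, Dsp in epithelia, and Wfs1 in many neurons.

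Promoters of 4 of the genes are shown because they belong to pairs whose levels moved together across libraries, as described further on: Prox1 with Dsp, and Neurod6 with Tbr1. Each runs 5′ to 3′ from 250 bases before to 50 bases after the transcription start of RefSeq (build GRCm38.p6), and 8 of the 9 genes matched that table, Spink8 being the exception. Prox1 and Mpped1 have 2 entries each, and the first one of Prox1 is shown. Capitals mark matches, on either strand, to CAGATG (an E-box of neurogenic basic helix-loop-helix factors, the family of Neurod6), AGGTGTGA (a T-box site, the family of Tbr1) and TAATTA (a homeodomain core, the family of Emx1, which reads the same on both strands).
Prox1, chr1:190170778-190171077, minus strand: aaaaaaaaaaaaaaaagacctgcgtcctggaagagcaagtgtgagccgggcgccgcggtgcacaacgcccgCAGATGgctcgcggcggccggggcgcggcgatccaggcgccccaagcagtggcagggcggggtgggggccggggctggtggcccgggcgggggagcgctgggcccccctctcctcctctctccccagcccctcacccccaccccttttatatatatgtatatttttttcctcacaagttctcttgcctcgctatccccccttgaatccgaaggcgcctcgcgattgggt
Dsp, chr13:38151044-38151343, plus strand: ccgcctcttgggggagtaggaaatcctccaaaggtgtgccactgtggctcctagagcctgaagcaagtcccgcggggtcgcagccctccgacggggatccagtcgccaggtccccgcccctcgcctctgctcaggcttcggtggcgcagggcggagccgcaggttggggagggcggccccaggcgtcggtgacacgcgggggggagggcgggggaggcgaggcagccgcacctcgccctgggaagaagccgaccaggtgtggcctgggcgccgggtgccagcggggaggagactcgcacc
Neurod6, chr6:55681214-55681513, minus strand: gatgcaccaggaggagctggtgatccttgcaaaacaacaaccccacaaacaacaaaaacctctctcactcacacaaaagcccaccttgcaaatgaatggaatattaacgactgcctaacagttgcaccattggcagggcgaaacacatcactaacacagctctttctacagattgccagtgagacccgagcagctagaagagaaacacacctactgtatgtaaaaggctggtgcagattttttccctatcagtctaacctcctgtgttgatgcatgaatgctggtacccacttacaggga
Tbr1, chr2:61804203-61804502, plus strand: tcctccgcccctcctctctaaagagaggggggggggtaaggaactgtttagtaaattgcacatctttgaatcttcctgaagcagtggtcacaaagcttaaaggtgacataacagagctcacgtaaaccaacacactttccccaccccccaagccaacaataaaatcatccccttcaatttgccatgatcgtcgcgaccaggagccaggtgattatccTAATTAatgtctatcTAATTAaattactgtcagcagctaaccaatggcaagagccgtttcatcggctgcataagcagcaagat
Tbr1 held TAATTA at 2 places, the Prox1 window shown held CAGATG once, and the Dsp and Neurod6 windows held none of the motifs. Among all 32851 promoters of the table, 17.2% held CAGATG, 1.28% AGGTGTGA and 5.29% TAATTA. Of the 10 promoter entries of the members, 2 held CAGATG (Prox1 and Wfs1), 1 held TAATTA (Tbr1) and 0 held AGGTGTGA. The second Prox1 entry (chr1:190169466-190169765, minus strand, 57.3% G and C) held none of the motifs. The marked letters do not overlap. The windows differed in base composition, with 73.0% G and C for Dsp and 64.3% for the Prox1 window shown against 46.3% for Neurod6 and 46.0% for Tbr1.

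Libraries held 25317306 to 29565006 counts, and the markers of the labelled tissue were present. The mean level of 9 lateral habenula markers was 6.92 to 7.27 log2 CPM in controls and 7.07 to 7.18 in CAIA libraries, where CPM is the count scaled to the size of the library. The mean level was 6.67 to 7.19 for 12 medial habenula markers and 6.17 to 6.95 for 12 thalamus markers, and no gene of these lists was at 0 in any library. Female control 1 stood apart for genes of the cortex. Among cortical markers other than the members, 8 of 12 had their highest level there, as did 6 of 10 genes of telencephalic neurons in general, 4 of 8 striatal markers and 3 of 14 other hippocampal pyramidal markers, against 0 of 12 other dentate markers. The share of all genes with their highest level in this library was not taken. The counts therefore compare the lists only with each other. Results that rest on this library are given with and without it.

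Among the dentate genes, Prox1, a homeobox transcription factor that sets granule cell identity, was well expressed in every library. Its level was 100.4, 128 and 114 CPM in female controls 1 to 3, 130.5, 126 and 111 in female CAIA, 98.8 and 99.4 in the male controls, and 150, 137 and 116 in male CAIA. The male controls were the lowest of all, and controls and CAIA overlapped through the female libraries. Prox1 overlaps the antisense gene Prox1os, and since the strand setting of the counting is not given in the sources used here, reads of the pair cannot be told apart. The gene lies on the minus strand of chr1:190118035-190170714 (GRCm38).

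C1ql2, a secreted C1q-like protein of mossy fibre synapses (chr1:120340582-120343174, plus strand), differed most between treatments. Its level was 6.50, 7.07 and 9.71 CPM in the female controls, 19.35, 35.4 and 9.03 in female CAIA, 4.25 and 2.57 in the male controls, and 18.7, 20.5 and 28.5 in male CAIA. Of the 6 CAIA libraries, 5 were above every control, and female CAIA 3 lay just below female control 3. The counts behind these levels totalled 816 in the controls and 3609 in CAIA.

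Dsp encodes desmoplakin, the protein that ties desmosomes to intermediate filaments (chr13:38151294-38198577, plus strand, overlapping the antisense gene Gm10129). Dsp stood at 52.9, 64.1 and 69.9 CPM in the female controls, 71.6, 52.9 and 55.6 in female CAIA, 44.8 and 45.6 in the male controls, and 86.1, 102 and 55.4 in male CAIA. The female groups overlapped, and the male controls were again the lowest libraries.

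Tbr1, Emx1 and Neurod6 varied widely among the female controls, where the highest library was 29.1, 15.3 and 7.80 times the lowest, against 1.27 to 1.49 times for the dentate genes. Tbr1, a T-box factor of early-born and deep-layer cortical neurons (chr2:61802930-61814114, plus strand), stood at 43.4, 1.49 and 20.3 CPM in the female controls, 6.26, 2.93 and 1.86 in female CAIA, 1.28 and 0.76 in the male controls, and 6.28, 10.8 and 5.46 in male CAIA. The highest level was 57.1 times the lowest, both of them in controls. Emx1, a homeobox factor of the dorsal telencephalon (chr6:85187438-85204462, plus strand), had a similar order, with 7.24, 0.471 and 1.16 CPM in the female controls, 0.889, 0.733 and 0.447 in female CAIA, 0.339 and 0.362 in the male controls, and 1.82, 2.91 and 1.11 in male CAIA. Its reads in the 2 male controls totalled 19. Neurod6, a basic helix-loop-helix factor of pyramidal neurons (chr6:55677822-55681263, minus strand), stood at 9.49, 1.22 and 3.85 CPM in the female controls, 5.34, 1.33 and 1.89 in female CAIA, 1.39 and 2.24 in the male controls, and 5.68, 5.93 and 2.26 in male CAIA. For these genes female control 1 was the highest library, and female control 2 was close to the male controls.

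Mpped1, a metallophosphoesterase-domain gene expressed in cortex and hippocampus (chr15:83779467-83858494, plus strand), was even in all libraries but one. It stood at 63.8, 17.2 and 16.4 CPM in the female controls, 21.7, 20.8 and 18.2 in female CAIA, 19.98 and 17.7 in the male controls, and 18.4, 19.6 and 21.6 in male CAIA. Female control 3, which was high in Tbr1, was thus the lowest of all libraries in Mpped1.

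Wfs1, the endoplasmic reticulum protein wolframin, which marks CA1 pyramidal cells (chr5:36966104-36989205, minus strand), varied least. It stood at 69.2, 63.7 and 59.5 CPM in the female controls, 63.7, 54.9 and 54.0 in female CAIA, 50.7 and 55.3 in the male controls, and 53.6, 53.5 and 50.7 in male CAIA. The highest level was 1.36 times the lowest. Spink8, a Kazal-type protease inhibitor that marks hippocampal pyramidal cells (chr9:109812280-109826633, plus strand), was near the limit of detection, with 4 to 19 reads per library and 0.14 to 0.746 CPM. Its level in single libraries therefore rests on few counts.

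**Figure D1:**
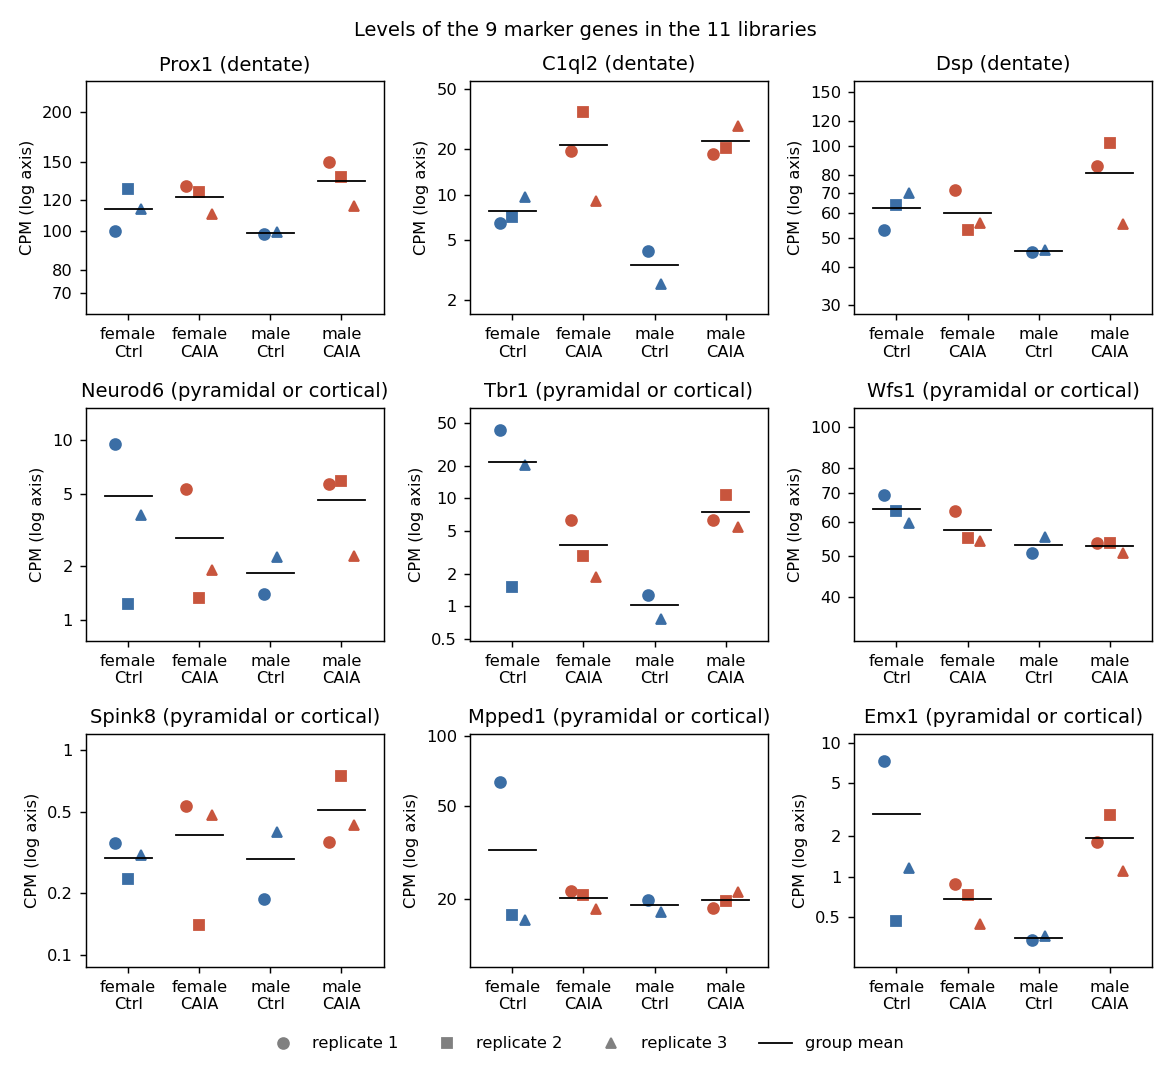
Level of each of the 9 genes (CPM, log axis whose range differs between panels) in the 4 groups, 1 point per library, with the symbol giving the replicate number and the line the arithmetic group mean. The male controls lie lowest for Prox1, Dsp and C1ql2, and female control 1 lies far above the other libraries for Mpped1, at 63.8 CPM.

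Levels of different genes were compared per kilobase of exon (RPKM, from merged GENCODE M21 exons), as means ± SD over 11 libraries. Wfs1 (15.1 ± 1.59 RPKM) and Prox1 (14.2 ± 1.98) were highest and did not differ beyond their spread. C1ql2 (7.34 ± 5.31), Dsp (6.60 ± 1.82) and Mpped1 (5.41 ± 3.16) came next, with overlapping spreads. Neurod6 (1.72 ± 1.23), Tbr1 (1.67 ± 2.32), Emx1 (0.727 ± 0.926) and Spink8 (0.461 ± 0.209) were lowest, and neighbours in that order overlapped too.

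The comparison of CAIA with vehicle over both sexes asks whether the treatment altered these levels. The 3 dentate genes were higher in CAIA and the 6 other genes had no common direction, but no gene passed the threshold of 0.05 after Benjamini-Hochberg adjustment over all genes. C1ql2 was 4.25-fold higher, a log2 fold change of 2.09 ± 0.37 (SE; edgeR quasi-likelihood test, adjusted p = 0.0676), and higher than every control in 5 of 6 CAIA libraries. Prox1 was higher by 0.27 ± 0.08 (edgeR adjusted p = 0.332) and Dsp by 0.39 ± 0.15 (edgeR adjusted p = 0.655). Among the pyramidal or cortical genes the log2 fold changes were 0.29 ± 0.60 for Neurod6, 0.16 ± 0.86 for Tbr1, 0.18 ± 0.73 for Emx1, 0.57 ± 0.41 for Spink8, -0.08 ± 0.07 for Wfs1 and -0.30 ± 0.37 for Mpped1, with edgeR adjusted p between 0.903 and 0.991.

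In all, 0 of 9 genes passed with edgeR, where 0.596% of all genes did, and 1 passed with DESeq2 and 1 with limma-voom, C1ql2 in each case (adjusted p = 2.89e-06 and 0.0254). DESeq2 called 0.86% and limma-voom 0.698% of the genes to which each gave an adjusted p. At an unadjusted p under 0.05, 3 of 9 were called, the 3 dentate genes, all higher, against 6.36% of all genes (2.44% higher). No gene separated all CAIA from all control libraries, where 0.168% of all genes were higher and 1.01% lower in every CAIA library. The median log2 fold change was 0.39 over the dentate genes, 0.17 over the others and 0.00 over all genes tested. The C1ql2 call also came in edgeR without female CAIA 2 (adjusted p = 0.0246) or without female CAIA 3 (0.0126), and its adjusted p ranged up to 0.308 without other libraries. Without female control 1, Mpped1 turned from -0.30 to 0.18 ± 0.08 and Emx1 went from 0.18 to 1.10 ± 0.36, neither passing (edgeR adjusted p = 0.794 and 0.438).

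Choroid plexus markers moved with treatment in these libraries. All 14 had a negative log2 fold change, with a median of -2.44, where 50% of all genes were above 0. Of the 14, 7 passed, against 0.596% of all genes. Their mean level was 5.28 to 6.14 log2 CPM in controls and 2.38 to 4.83 in CAIA, and none was at 0. Of 12 meningeal fibroblast markers, 2 passed, Col1a1 at -0.38 ± 0.08 and Igf2 at -1.35 ± 0.26 (edgeR adjusted p = 0.0469 and 0.0286). Over these 12 the median was -0.21, with 4 positive and 8 negative. The part of these tissues in the values of the 9 genes was not tested. In bulk tissue, fewer cells of a type and less RNA per cell cannot be told apart.

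Split by sex, the dentate genes were higher in CAIA males and the telencephalic factors Tbr1 and Emx1 had opposite signs in females and males. In males, 6 of 9 genes were higher in each of the 3 CAIA libraries than in both controls, namely Prox1, C1ql2, Dsp, Neurod6, Tbr1 and Emx1, against 9.18% of all genes. C1ql2 was higher by 2.73 ± 0.59 on the log2 scale (edgeR adjusted p = 0.537), Dsp by 0.84 ± 0.23 (adjusted p = 0.573) and Prox1 by 0.44 ± 0.12 (adjusted p = 0.573). Tbr1 was higher by 2.88 ± 1.40 and Emx1 by 2.45 ± 1.16, each with an edgeR adjusted p of 0.914. Neurod6 was at 1.34 ± 0.93, Spink8 at 0.78 ± 0.62, Mpped1 at 0.08 ± 0.56 and Wfs1 at -0.01 ± 0.10. In males 0 of 9 passed with edgeR, as 0% of all genes did, and 3 of 9 had an unadjusted p under 0.05, all higher, against 5.63% of all genes (3.13% higher). DESeq2 called 2, C1ql2 and Dsp (adjusted p = 0.00109 and 0.0226), where it called 0.389% of all genes, and limma-voom called 0 of 9 and 0% of all genes. The 2 male controls held the lowest levels of Prox1, C1ql2, Dsp, Tbr1 and Emx1, so each of these comparisons rests on a pair of libraries.

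In females no gene separated the groups, where 5.08% of all genes were higher and 6.39% lower in every CAIA library. C1ql2 was higher by 1.45 ± 0.47 (edgeR adjusted p = 0.633). Tbr1 was lower, at -2.56 ± 1.02 (edgeR adjusted p = 0.911), and so was Emx1, at -2.09 ± 0.90 (edgeR adjusted p = 0.939). Without female control 1 these became -1.57 ± 0.97 and -0.25 ± 0.49, and Mpped1 went from -0.68 ± 0.50 to 0.28 ± 0.12 and Neurod6 from -0.77 ± 0.78 to 0.16 ± 0.72. Prox1 (0.10 ± 0.11), Dsp (-0.05 ± 0.20), Wfs1 (-0.16 ± 0.09) and Spink8 (0.36 ± 0.55) made up the rest. In females 0 of 9 passed with edgeR, against 0.26% of all genes, and 0 passed with DESeq2 or limma-voom, which called 0.732% and 0.331% of all genes. At an unadjusted p under 0.05, 3 were called, 1 higher and 2 lower, against 5.22% of all genes (1.16% higher and 4.06% lower).

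The difference between the sexes was tested itself. Female minus male, all 9 log2 differences were negative, where 48% of all genes were above 0, with a median of -0.90 against -0.01 over all genes. Tbr1 (-5.44 ± 1.73), Emx1 (-4.54 ± 1.46) and Dsp (-0.90 ± 0.30) were the farthest from 0 relative to their errors, each with an edgeR adjusted p of 0.978. By this test 0 of 9 passed with edgeR, DESeq2 and limma-voom alike, edgeR and limma-voom calling 0% and DESeq2 0.00567% of all genes. Of the 9, 3 had an unadjusted p under 0.05, all negative, where 4.11% of all genes did (2.98% negative). Without female control 1 the difference was -4.44 ± 1.56 for Tbr1 and -2.70 ± 0.72 for Emx1, and 0.20 ± 0.17 for Mpped1 in place of -0.76 ± 0.75.

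**Figure D2:**
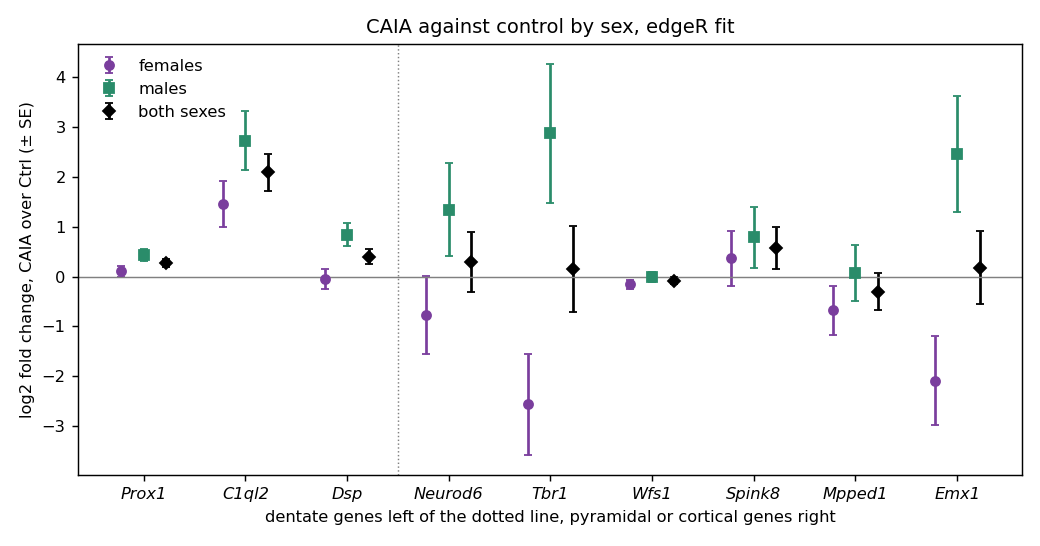
Log2 fold change of CAIA over control with its standard error, from the edgeR fit, for females (circles), males (squares) and both sexes (diamonds). C1ql2 is above 0 in both sexes (1.45 and 2.73), whereas Tbr1 is at -2.56 in females and 2.88 in males; no value passed after adjustment over all genes.

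Female and male controls, which no treatment separates, were also compared. The difference of the CAIA effect between the sexes holds this same contrast, so it is not a separate result. All 9 genes had a higher fitted level in female than in male controls, where 52.1% of all genes did, and 6 of 9 were higher in each of the 3 female than in both male controls (Prox1, C1ql2, Dsp, Tbr1, Wfs1 and Emx1), against 9.18% of all genes. The log2 difference was 4.41 ± 1.41 for Tbr1, 3.05 ± 1.15 for Emx1 and 0.27 ± 0.10 for Wfs1, each with an edgeR adjusted p of 0.740. Without female control 1 these became 3.41 ± 1.27, 1.21 ± 0.59 and 0.20 ± 0.11 (edgeR adjusted p = 0.762, 0.765 and 0.771), and 7 of 9 genes were higher in females, Mpped1 going from 0.78 ± 0.57 to -0.18 ± 0.13 and Spink8 from 0.02 ± 0.64 to -0.12 ± 0.73. None of the 9 passed with edgeR (0 of 9, against 0.0357% of all genes) or limma-voom (0.0459% of all genes), and DESeq2 called 1, Tbr1 (adjusted p = 0.0487), where it called 0.0955% of all genes. Of the 9, 3 had an unadjusted p under 0.05, all higher in females, against 6.66% of all genes (3.93% higher). Over both treatments 0 of 9 passed with edgeR, DESeq2 or limma-voom, where these called 0.0459%, 0.0759% and 0.051% of all genes. Wfs1 alone had an unadjusted p under 0.05 (6.76% of all genes did, 3.12% higher in females), at 0.20 ± 0.07 (edgeR adjusted p = 0.725).

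Whether dentate and pyramidal genes moved together was read from the 36 pairs of genes across the 11 libraries, on log2 CPM. Tbr1, Emx1 and Neurod6 moved with each other, Prox1 moved with Dsp, and over all 11 libraries no pair of a dentate with a pyramidal or cortical gene passed. Without female control 1, 1 of these 18 pairs passed, Dsp with Emx1 (r = 0.886, permutation, adjusted p = 0.031). Tbr1 with Emx1 had Pearson's r = 0.904 (permutation p = 0.00022, adjusted over the pairs 0.00774) and Spearman's rho = 0.945 (permutation p = 7e-05, adjusted 0.00252). Neurod6 with Emx1 had r = 0.857 (permutation p = 0.00043, adjusted 0.00774) and rho = 0.827 (p = 0.0024, adjusted 0.0286). Neurod6 with Tbr1 had r = 0.818 (permutation p = 0.0022, adjusted 0.0196) and rho = 0.809 (p = 0.0039, adjusted 0.0354). These are the developmental regulators of dorsal telencephalic glutamatergic neurons. Prox1 with Dsp had r = 0.839 (permutation p = 0.0014, adjusted 0.0163) and rho = 0.882 (p = 0.00081, adjusted 0.0146).

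Without the 2 libraries farthest from the median of the first gene, r was 0.817 for Tbr1 with Emx1, 0.732 for Neurod6 with Emx1, 0.676 for Neurod6 with Tbr1 and 0.748 for Prox1 with Dsp, and 0 pairs passed (permutation, adjusted p from 0.222 to 0.284 for these pairs). After removal of the 4 group means, r was 0.857, 0.832, 0.825 and 0.705 in the same order, and 0 pairs passed by an exact test over the 432 rearrangements within groups, whose smallest possible p is 0.0023. Without female control 1, Tbr1 with Emx1 (0.845) and Prox1 with Dsp (0.844) still passed, whereas Neurod6 with Emx1 (0.794) and Neurod6 with Tbr1 (0.728) did not (permutation, adjusted p = 0.0528 and 0.089). Without male control 1, 2 pairs passed, Neurod6 with Emx1 and Tbr1 with Emx1.

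C1ql2 did not follow the other dentate genes as closely. Its r was 0.716 with Prox1 (permutation p = 0.015, adjusted 0.107; rho = 0.682, p = 0.026, adjusted 0.185) and 0.518 with Dsp (permutation p = 0.1, adjusted 0.288; rho = 0.527, p = 0.1, adjusted 0.376). Removal of the group means left 0.148 and -0.16. Within a treatment the levels crossed: female CAIA 2 had the highest C1ql2 of all libraries (35.4 CPM) with a Dsp of 52.9, and male CAIA 2 the highest Dsp (102) with a C1ql2 of 20.5.

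Over the 18 pairs of a dentate with another gene, 0 passed by either coefficient, 0 had an unadjusted p under 0.05 for r, 13 were positive and 5 negative. Their median r was 0.184 (range -0.346 to 0.545), against 0.716 over the 3 dentate pairs and 0.545 (0.003 to 0.904) over the 15 pairs of other genes. With the group means removed the medians were -0.076, 0.148 and 0.576. These values depended on female control 1. Over the 10 libraries without it, 1 of the 18 pairs passed by each coefficient, Dsp with Emx1 (r = 0.886, permutation p = 0.00086, adjusted 0.031; rho = 0.842, p = 0.0038, adjusted 0.046), 5 had an unadjusted p under 0.05 for r, and 16 were positive. The median of the 18 was then 0.551 (range -0.069 to 0.886), against 0.702 over the dentate pairs and 0.128 (-0.302 to 0.845) over the pairs of other genes. Dsp with Neurod6 stood at 0.799, Prox1 with Emx1 at 0.753 and Dsp with Tbr1 at 0.743 (permutation, adjusted p = 0.0528, 0.0742 and 0.0742). With any other single library left out 0 of the 18 passed, and their median lay between 0.036 and 0.344. Across all genes, the median r of any 1 of the 9 with another gene lay between -0.027 and 0.025. Mpped1 and Wfs1 were not part of the Tbr1 group. Mpped1 with Emx1 had r = 0.718 (permutation p = 0.03, adjusted 0.183; rho = 0.309, p = 0.36, adjusted 0.674), which became 0.153 without female control 1, so that relation rests on this library. Over all 11 libraries Dsp with Emx1 had r = 0.466 (permutation p = 0.15, adjusted 0.355; rho = 0.555, p = 0.083, adjusted 0.376), and it was 0.192 without the 2 libraries farthest from the median of Dsp.

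**Figure D3:**
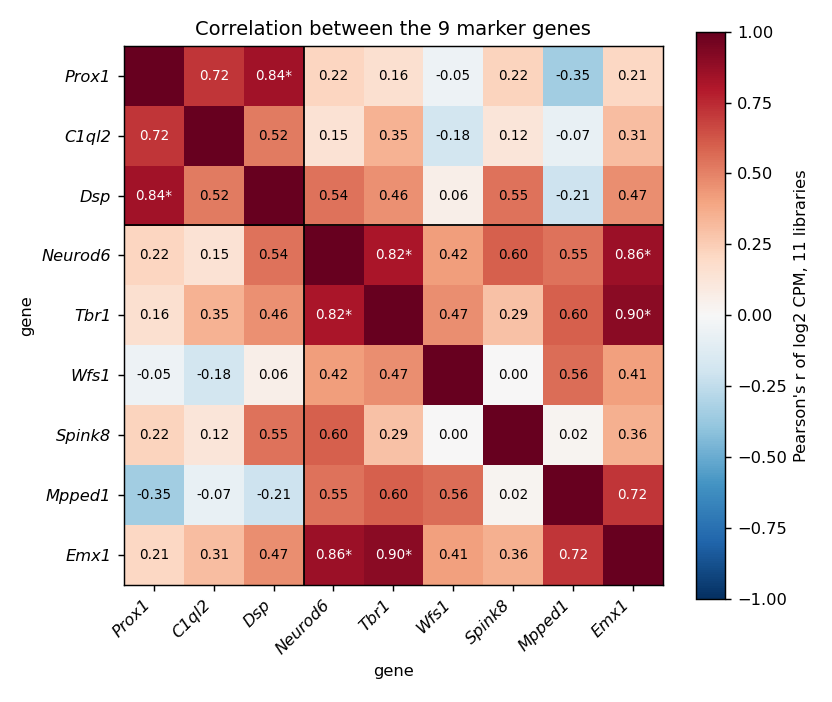
Pearson's r of log2 CPM over 11 libraries for each pair of the 9 genes, with black lines between the dentate and the other genes. An asterisk marks the 4 pairs that passed after adjustment over 36 pairs: Prox1 with Dsp, Neurod6 with Tbr1, Neurod6 with Emx1 and Tbr1 with Emx1. With female control 1 left out, Dsp with Emx1 passed as well, and both pairs of Neurod6 did not.

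Centring each gene on its own mean and averaging by set placed the libraries in different orders. The genes were not scaled to equal spread, so C1ql2 weighed most in the dentate set. Its highest level was 13.8 times its lowest, against 1.52 times for Prox1 and 2.27 times for Dsp. The dentate set was highest in male CAIA 2 (0.60 log2 units above its mean), male CAIA 1 (0.52) and female CAIA 2 (0.51), and lowest in male control 3 (-0.92) and male control 1 (-0.70). Of the 11 libraries, female CAIA 2 had rank 1 for C1ql2 but rank 5 for Prox1 and rank 8 for Dsp. The other set was highest in female control 1 (1.58), male CAIA 2 (0.74) and female control 3 (0.37), and lowest in male control 1 (-0.86) and female control 2 (-0.73). Female control 1 was thus first in one order and the ninth in the other, and female CAIA 2 was the third for the dentate set and the eighth for the other, while the male libraries kept CAIA above controls in both.

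**Figure D4:**
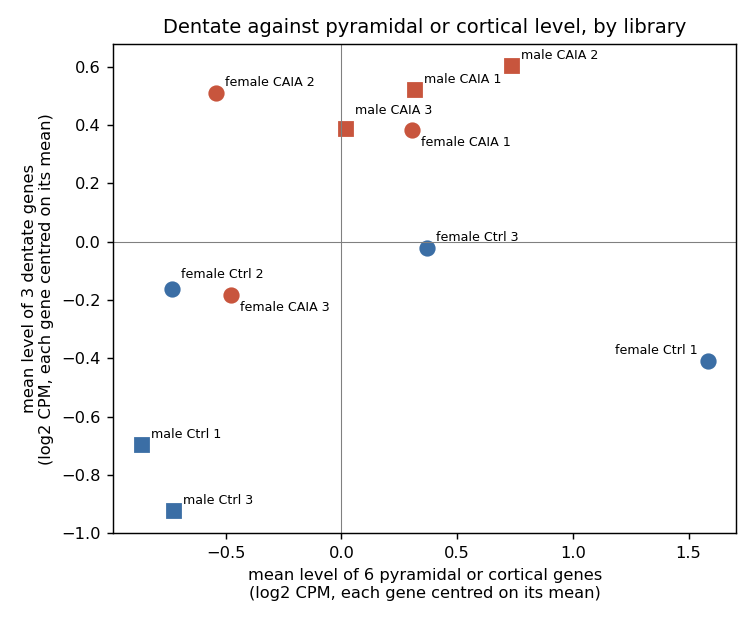
Mean centred level of the 3 dentate genes (vertical axis, log2 CPM) against that of the 6 pyramidal or cortical genes (horizontal axis, log2 CPM), 1 point per library, with circles for females, squares for males, blue for controls and red for CAIA. The male controls lie at the lower left, male CAIA at the upper right, and female control 1 lies alone at the right, at 1.58 and -0.41. Genes were not scaled to equal spread, so the dentate mean follows C1ql2 most.

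Of the 15548 other genes that averaged 1 CPM or more, those most like the dentate set across the 11 libraries, by Pearson's r, were Npffr1 (0.920), Slc7a14 (0.916), Mycl (0.882), Tlr7 (0.878), Rbm24 (0.872) and Bag4 (0.871), where the median gene had 0.009. This list and the one for the other set hold the highest of 15548 values of r over 11 libraries. Such values are high by selection, and whether they exceed chance was not tested. Npffr1 is a receptor for RFamide peptides, Slc7a14 a transporter of the cationic amino acid family, Mycl a Myc-family transcription factor, Tlr7 a receptor for single-stranded RNA, Rbm24 an RNA-binding protein and Bag4 a co-chaperone. Of these, Mycl passed between CAIA and control, at 0.57 ± 0.10 (edgeR adjusted p = 0.0134). Most like the other set were Kcnj4 (0.980), Egr3 (0.978), Itpka (0.976), Ankrd33b (0.972), Ipcef1 (0.971) and Kcnh3 (0.970), with a median gene at -0.015. Kcnj4 and Kcnh3 encode potassium channels, Egr3 an activity-regulated transcription factor and Itpka a kinase of dendritic spines. All of these 6 had their highest level in female control 1, such as Kcnh3 with 82.7 CPM against a mean of 14.9 over all libraries, and r stayed between 0.946 and 0.973 without it. None of these 6 passed between CAIA and control (edgeR adjusted p 0.967 to 1).

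Further lists of markers that hold none of the 9 genes were set beside them, described by counts and medians only. These lists and those above were chosen with earlier results of these data known. Their shares beside all genes are therefore a description and not an independent test. All 12 other dentate markers had a positive log2 fold change in CAIA over both sexes, with a median of 0.26, and 0 passed; over all genes tested, 50% were positive. The median was 0.50 in males (11 of 12 positive, against 49.8% of all genes) and 0.00 in females (6 of 12, against 49.5%). The members with the highest mean CPM were Stxbp6 (0.13 ± 0.08), Ablim3 (0.01 ± 0.08), Dock10 (0.23 ± 0.13) and C1ql3 (0.26 ± 0.08), C1ql3 being a relative of C1ql2 that many neurons make. Chosen after its values were seen, the granule cell marker Lct stood at 2.22, 0.236 and 10.5 CPM in the female controls, 6.94, 3.31 and 2.37 in female CAIA, 0.151 and 0.398 in the male controls, and 11.3, 17.2 and 6.47 in male CAIA. Female control 3 was thus far above female control 2, as for Tbr1, and the male controls were low.

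The 14 other hippocampal pyramidal markers had a median of -0.01, 6 positive and 8 negative, and their mean level stayed within 4.05 to 4.26 log2 CPM over all libraries. Cpne4 (0.04 ± 0.08), Amigo2 (0.05 ± 0.07), Fibcd1 (0.00 ± 0.09) and Bok (-0.15 ± 0.20) had the highest mean CPM. Of 12 other cortical markers 7 were positive and 5 negative, with a median of 0.04, and 0 passed. Cux2 (-0.25 ± 0.14), Rasgrf2 (0.21 ± 0.09), Slc30a3 (0.04 ± 0.13) and Bhlhe22 (0.48 ± 0.16) had the highest mean CPM. The cortical list was at 4.32 log2 CPM in female control 1 and between 2.46 and 3.21 elsewhere. Named after its values were seen, Lamp5, of superficial cortical neurons and interneurons, was at 57.5 CPM in female control 1 and 0.977 to 2.92 elsewhere. Female control 3, which was also high in Tbr1, had 1.91 CPM of Lamp5.

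The 10 genes of telencephalic neurons in general had a median of 0.22 over both sexes (9 positive), -0.26 in females (1 positive) and 0.70 in males (10 positive), with 0 passing. Of all genes, 50%, 49.5% and 49.8% were positive in these comparisons. Slc17a7, the vesicular glutamate transporter of cortical and hippocampal neurons, had the highest mean at 502 CPM (0.01 ± 0.12), followed by Nrn1 (0.07 ± 0.06), Ptk2b (0.29 ± 0.18) and Zbtb18 (0.16 ± 0.13).

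Among the remaining lists, 1 of 8 striatal markers passed over both sexes, against 0.596% of all genes. It was Ppp1r1b, the dopamine-regulated phosphatase inhibitor also found in many forebrain neurons, at -0.48 ± 0.09 (edgeR adjusted p = 0.0221). The median was -0.17 over striatal, 0.01 over lateral habenula, 0.08 over medial habenula, 0.00 over thalamus, -0.08 over ependyma and 0.91 over 7 pineal markers, with 0 passing in the last 5. By sex, the thalamus median was 0.17 in females (11 of 12 positive) and -0.12 in males (3 of 12). Medial habenula markers had 0.14 (12 of 12) and -0.01 (6 of 12), where 49.5% and 49.8% of all genes were positive. Female minus male, all 12 thalamus markers were positive (median 0.295), against 48% of all genes. Between female and male controls, 1 of 12 was positive (median -0.23), against 52.1%. The pineal list was high in female CAIA 2 (0.78 log2 CPM) and male CAIA 3 (0.91), and between -2.55 and -0.23 in all other libraries. Those libraries also ranked 1 and 2 for C1ql2 (35.4 and 28.5 CPM), and a link was not tested. Among cell types outside the neurons known to make Prox1, 6 oligodendrocyte precursor markers had a median of 0.02 with a mean level of 5.45 to 5.64 log2 CPM, and 4 lymphatic endothelium markers had a median of 0.10 with 2.501 to 3.31. Lyve1, 1 of these 4 lymphatic endothelium markers, was at 1.49 CPM on average, below the mean level of its list. Other genes thus carry that mean, and whether their reads come from lymphatic endothelium was not tested.

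**Figure D5:**
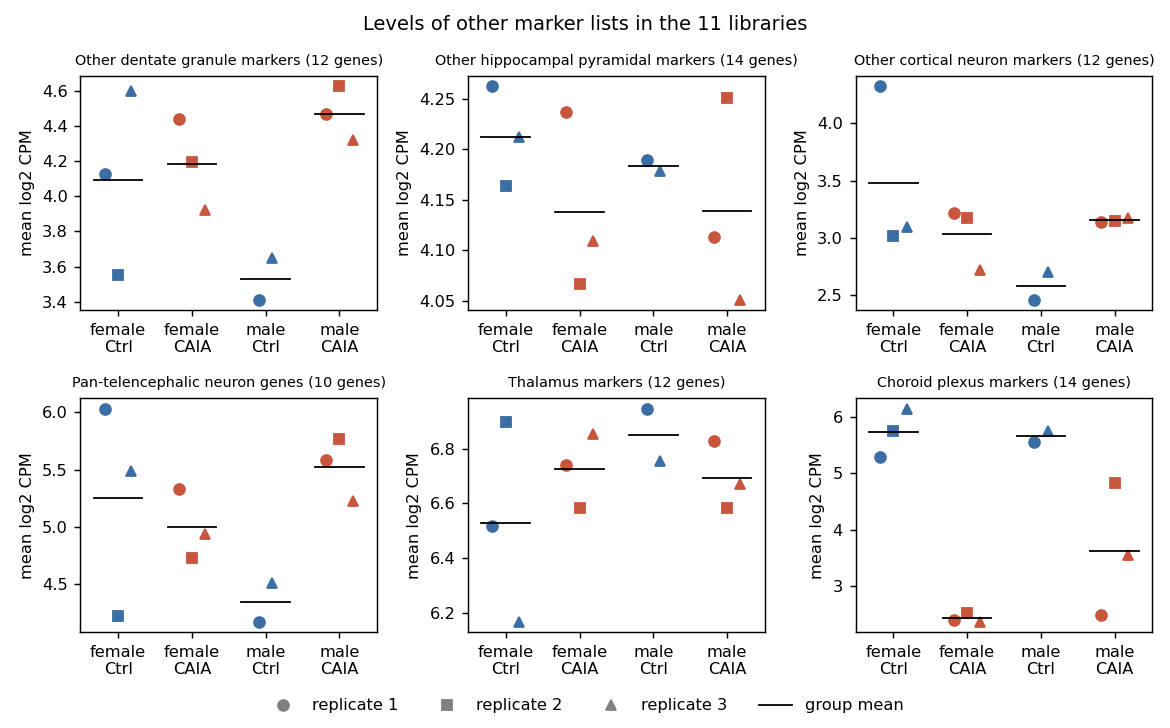
Mean log2 CPM of 6 marker lists in the 4 groups, 1 point per library with the symbol giving the replicate number and the line the group mean; the vertical ranges differ between panels. Choroid plexus markers separate controls (5.28 to 6.14) from CAIA (2.38 to 4.83), cortical markers single out female control 1 (4.32), and the other dentate markers are lowest in the male controls and in female control 2.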

How the data were processed

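RNA-seq of dissected lateral habenula was deposited as 1 table of read counts per gene for 11 libraries. The submitters' processing notes name the build GRCm38 and, as the authors' tools, featureCounts 1.5.0-p3, HISAT2 2.0.5 and cutadapt 1.9.1. How strand was handled and which annotation was counted is not given in the sources used here. The counts were used as deposited, without normalization by the authors.

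Genes were filtered with filterByExpr by group, scaled with TMM and fitted with 4 group means in edgeR 4.0.16 (robust quasi-likelihood, 7 residual degrees of freedom) in R 4.3.3. Two-sided tests over 19619 genes were adjusted by Benjamini-Hochberg, at a threshold of 0.05. Each standard error was taken as the log2 difference over the root of its F value. Log2 CPM for correlations used a prior count of 2, and their two-sided permutation tests 100000 resamples, adjusted over 36 pairs. No 2 libraries of a group agreed within sampling noise (chi-square per degree of freedom 7.09 to 30.83). Coordinates and exon lengths came from GENCODE M21 (54495 gene identifiers matched), and promoters from RefSeq. The fit was tested on simulated data with known changes. Over both sexes it recovered 68.7% of 1.5-fold, 89.6% of 2-fold and 95.5% of 4-fold changes, and 12 of 181 calls were false. Of 1.5-fold changes it recovered 47.8% in females and 41.8% in males. These shares hold for the simulated spread, which may differ from that of the libraries.

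The 9 genes and 14 further marker lists were chosen with earlier results of these data known. Named genes were the 9, the 6 most like each set, and from other lists up to the 4 most abundant and those that passed, of which the choroid plexus ones are given as counts; Lct and Lamp5 lie outside this rule and were chosen after their values were seen. Alternatives were RLE scaling, DESeq2 1.42.0, limma-voom (limma 3.58.1), other filters, a replicate block, other designs, another prior count and each library left out.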

Additional observations from a re-analysis of the deposited data

Results flagged for a closer look

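In 18 groups of libraries (each of the 9 genes in the 5 controls and in the 6 CAIA libraries), the highest or lowest library was compared with its nearest neighbour relative to the range of the group, both on log2 CPM, and chance alone marks about 1 in 20 such groups. Mpped1 stood at 63.8 CPM in female control 1, where the nearest of the 5 controls was at 20 CPM, a gap of 0.854 of the range in log2 CPM. Wfs1 stood at 63.7 CPM in female CAIA 1, where the nearest of the 6 CAIA libraries was at 54.9 CPM, a gap of 0.648 of the range in log2 CPM.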

How the results depend on the processing

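With edgeR as described, 0 of 9 genes passed in each of the 6 comparisons, and this count was 0 as well with RLE scaling in all 6. DESeq2 called 1 over both sexes, 2 in males and 1 between female and male controls, and limma-voom 1 over both sexes. A mean of at least 1 CPM as filter gave 1 over both sexes (C1ql2, adjusted p = 0.0497), where 0.643% of all genes passed, and the male libraries fitted alone gave 2 (C1ql2 and Tbr1), where 0.229% did. Without a low-count filter the counts were 3 over both sexes, 5 in females, 6 in males, 6 for the difference, 6 and 3 for female against male in controls and over both treatments, where 1.33%, 1.28%, 1.2%, 0.896%, 1.12% and 0.788% of all genes passed. The standard error of C1ql2 over both sexes was then 0.11 in place of 0.37, and the cause was not tested. Leaving out each library gave 0 to 1 over both sexes and 0 to 0 in the other 5 comparisons. Counts of called pairs were 0 with group means removed and 0 without the 2 farthest libraries, and ranged from 2 to 5 with each library left out.

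An additive model turned Tbr1 to -0.75 and Emx1 to -0.41 over both sexes. With each library left out, some log2 fold changes took either sign. Over both sexes they ranged from -0.13 to 0.75 for Neurod6, -0.15 to 0.65 for Tbr1, -0.47 to 0.18 for Mpped1 and -0.07 to 1.10 for Emx1. In females they ranged from -0.19 to 0.032 for Dsp, -1.58 to 0.16 for Neurod6 and -1.01 to 0.28 for Mpped1, and in males from -0.08 to 0.065 for Wfs1. The sex difference ranged from -1.06 to 0.008 for Spink8 and -1.08 to 0.20 for Mpped1. Female against male in controls ranged from -0.42 to 0.66 for Spink8 and -0.18 to 1.11 for Mpped1. Over both treatments it ranged from -0.019 to 0.082 for Prox1, -0.098 to 0.11 for Dsp, -0.11 to 0.58 for Neurod6, -0.42 to 0.13 for Spink8, -0.078 to 0.57 for Mpped1 and -0.14 to 1.03 for Emx1. The correlation of Tbr1 with Mpped1 was -0.122 without the 2 farthest libraries. The cause was not tested.

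Deviations of same-numbered control and CAIA libraries from their group means had r of 0.12, -0.09 and -0.164 in females. Female libraries of differing number had r from -0.143 to 0.206. In males r was -0.016 and -0.287, but with 2 controls the deviations are mirror images and tell little. These few values cannot decide whether the numbers pair the libraries. With a replicate block, 0 of 9 genes passed in all 6 comparisons, C1ql2 was at 1.99 ± 0.41 (edgeR adjusted p = 0.223), and the residual correlation of Prox1 with C1ql2 was -0.055. Depth limits Spink8, with 4 to 19 reads a library, and Emx1 in the male controls.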
